A study of Homo sapiens with 4 samples.

Results

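The kinetochore is the protein assembly that joins each chromosome to the mitotic spindle. The 43 genes described here encode parts of it: the centromeric histone CENP-A and its loading factors, the inner kinetochore, the microtubule-binding outer kinetochore, the fibrous corona, the spindle assembly checkpoint and the chromosomal passenger complex. They were listed by name, and all 43 were found by symbol among the 20263 genes of the deposited count table. The mitotic kinases that act at kinetochores are not on the list and are counted separately near the end. The RNA came from MDA-MB-231, an established line of human breast cancer cells that lack hormone receptors, kept with the compound YW-LF for 24 h (2 libraries) or its solvent, dimethyl sulfoxide (DMSO, 2 libraries). Both groups grew in DMEM with 10% fetal bovine serum and antibiotics. The title of the series describes YW-LF as derived from ribociclib, which inhibits the kinases CDK4 and CDK6, and ties its effect to the p53 pathway; the labels state no dose. A single line and a single time were studied. Nothing in the labels says that replicates came from separate cultures, so the spread behind each p-value is that between these libraries and may be technical.

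Kinetochore assembly starts from nucleosomes that carry CENP-A. These recruit the constitutive centromere-associated network (CCAN), which holds the KMN network (the KNL1, MIS12 and NDC80 complexes) and through it the microtubules. Kinetochores without microtubules catalyse a MAD2-containing inhibitor of CDC20, the activator of the anaphase-promoting complex, and so delay chromosome separation. Transcripts of many of these genes are scarce in quiescent and G1 cells and accumulate in dividing cells, and many promoters of late cell cycle genes carry a cell cycle genes homology region (CHR), a short element bound by the MuvB complexes, beside CCAAT boxes.

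Most kinetochore genes were lower in YW-LF cells than in DMSO cells, but none passed adjustment over all genes in the main edgeR test, whereas DESeq2 called 8. The YW-LF libraries were both below the lower DMSO library in 30 of the 43 genes (69.8%), against 27.8% of the 13816 genes tested. In 4 of the 43 (9.3%) they were both above the higher DMSO library, against 28.0% of all genes tested, and in 9 the groups overlapped. The median log2 fold change of the 43 genes (YW-LF over DMSO) was -0.65, and that of all genes tested was 0.06. An unadjusted p under 0.05 with a lower level was reached by 14 genes (32.6%), against 9.01% of all genes tested, and with a higher level by 0 genes, against 11.5%. With Benjamini-Hochberg adjustment over the genes tested, the quasi-likelihood test of edgeR called 0 of the 43 and 0.0% of all genes (lowest adjusted p over all genes 0.117). DESeq2 called 8 of the 43 lower (KNL1, INCENP, SPC25, CENPE, SKA3, ZWINT, SPC24 and CENPF) and 0 higher at an adjusted p under 0.05, against 4.4% lower and 5.94% higher over the genes to which it gave an adjusted p. Without the count filter, edgeR called 1 gene, KNL1, lower, against 0.718% lower and 0.927% higher over all genes. Once replicate number entered as a block, it called 3 genes lower (KNL1, SKA3 and INCENP), against 1.05% lower and 1.35% higher, though the labels do not pair the libraries. With 2 libraries a group an exact permutation test cannot go below p = 0.333, so lack of overlap is a description only.

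Summed over the 43 genes, levels were 1490 and 1850 CPM (counts per 1e+06, scaled by the trimmed mean of M-values, TMM) in YW-LF replicates 1 and 2, against 3220 and 2760 CPM in DMSO replicates 1 and 2. Against the DMSO mean, the treated libraries had median log2 differences of -0.87 (replicate 1, 38 of the 43 genes below 0) and -0.58 (replicate 2, 32 below 0). Over all genes tested, these medians were 0.03 and -0.03. In the main fit, 79.1% of the 43 genes had a negative log2 fold change, against 47.5% of all genes tested. Both treated libraries were below both controls in sum, and their medians over the 43 genes were below the DMSO mean. In bulk RNA, fewer cells in the stages that express these genes and less of the RNA per cell cannot be told apart.

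**Figure D1:**
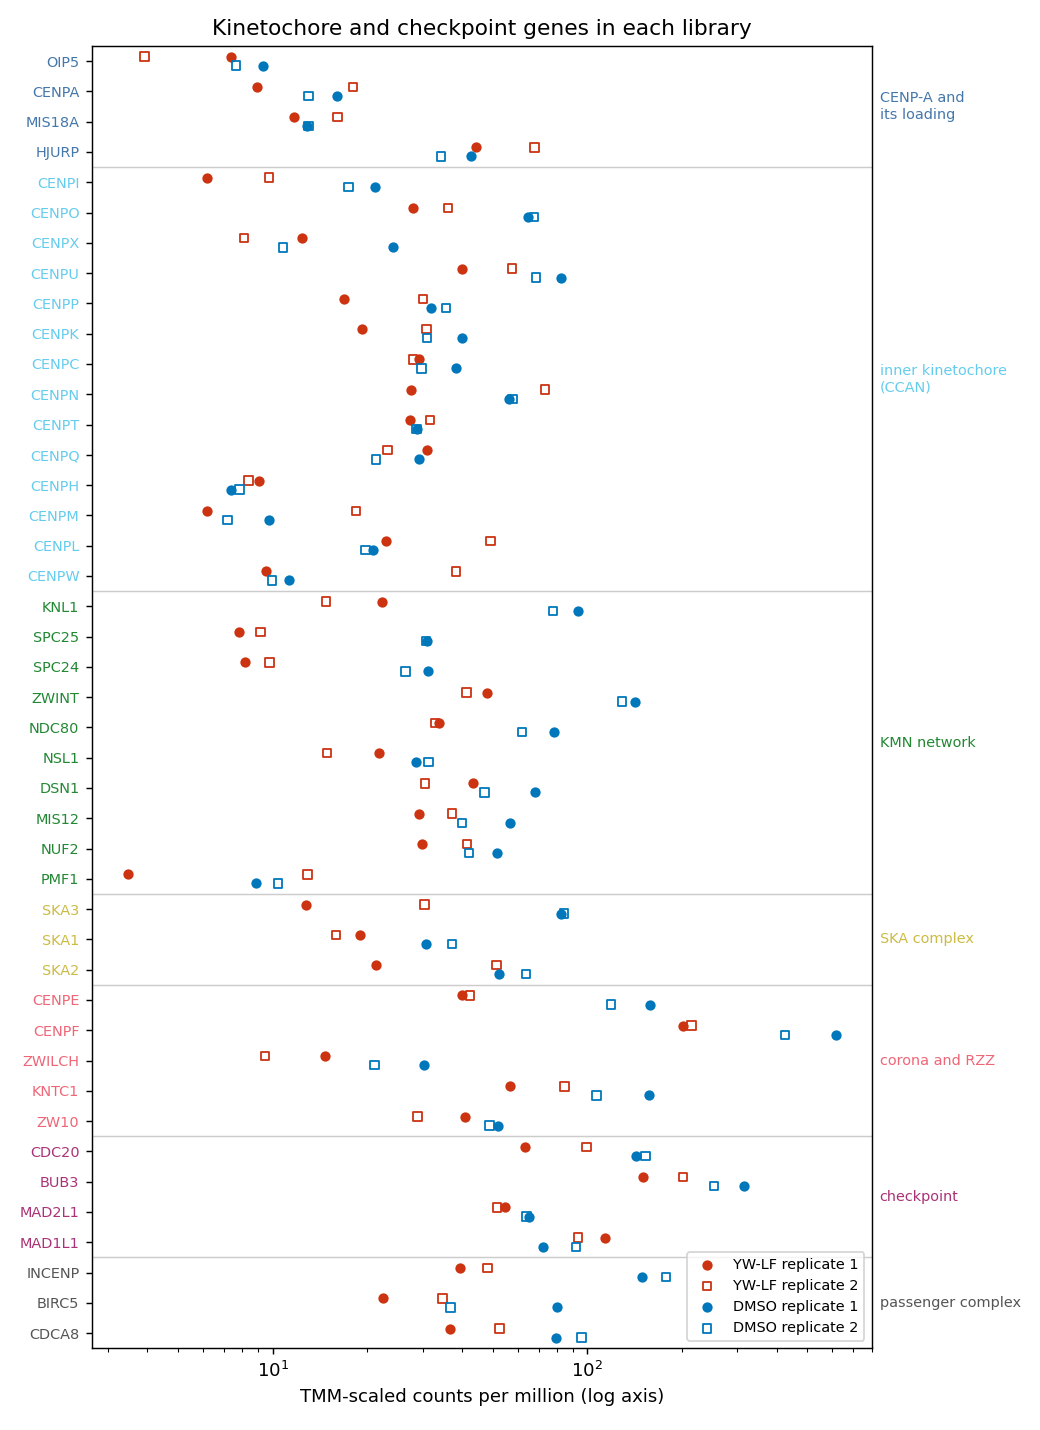
Level of each of the 43 genes (TMM-scaled CPM, log axis) in the YW-LF libraries (red) and the DMSO libraries (blue); circles are replicate 1, squares replicate 2, and rows are grouped by role. The outer kinetochore (PMF1 excepted), corona and passenger genes show red to the left of blue, while several inner kinetochore genes overlap.

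Single libraries and the scaling moved these counts, and the background moved with them. Leaving out YW-LF replicate 1, 19 genes were lower and 4 higher at an unadjusted p under 0.05, against 26.2% and 25.3% of all genes, and 21 passed adjustment, against 41.7%. Leaving out YW-LF replicate 2, 26 were lower and 0 higher, against 18.7% and 18.8%, and 18 passed adjustment, against 20.3%. Leaving out DMSO replicate 1, 6 were lower and 0 higher, against 3.39% and 4.5%, and leaving out DMSO replicate 2, 8 were lower and 0 higher, against 2.55% and 4.32%; 0 passed adjustment in either, against 0.512% and 0.443%. CENPI, CENPO, NDC80, SKA1, CENPF, ZWILCH and CDCA8 no longer had an unadjusted p under 0.05 when either DMSO library was left out, nor did SPC24 when DMSO replicate 1 was. Scaled by library size only, 8 genes were lower and 0 higher, against 5.46% and 10.8% of all genes. The unadjusted p was then 0.0564 for CENPI, 0.0538 for CENPO, 0.0716 for NDC80, 0.148 for SKA1, 0.163 for ZWILCH and 0.0574 for CDCA8, with each still lower. The share of the 43 genes that were lower was above the background in each of these fits.

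Replicates 1 and 2 held 40218240 and 36886858 counts in YW-LF and 34774542 and 37754168 in DMSO, and the lowest count of any of the 43 genes was 121 (OIP5, YW-LF replicate 2). The YW-LF libraries differed from each other more than the DMSO libraries did: over the 43 genes, the SD of the log2 replicate ratio was 0.7 in YW-LF and 0.34 in DMSO. Over all genes tested, that SD was 1.24 in YW-LF and 0.61 in DMSO. The YW-LF replicates differed over 2-fold in 8 of the 43 genes (CENPA, CENPL, CENPM, CENPN, CENPW, PMF1, SKA2 and SKA3). The DMSO replicates did so in 2 (CENPX and BIRC5). These 2-fold counts were not made over all genes. The 13 mitochondrially encoded genes held 3.14% and 6.58% of the YW-LF counts, against 8.68% and 21.7% of the DMSO counts. Without them, 14 kinetochore genes were again lower at an unadjusted p under 0.05, against 1239 of the 13812 genes then tested. The line's labels held: VIM, CD44, CAV1, AXL and ANXA1, all expressed in MDA-MB-231, stood at 168 to 3680 CPM in each library, and ESR1, PGR, CDH1 and CDKN2A at 2.11 CPM or less (these markers by library size alone).

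Promoter windows from RefSeq (GRCh38.p14, 250 bases before to 50 after the start site) were found for 35 of the 43 genes. MIS18A, CENPH, CENPL, CENPM, KNL1, KNTC1, BUB3 and BIRC5 had none, so KNL1, the lowest of the list (-2.21), is missing from the motif counts. The windows were searched on both strands for CHR letters (TTTGAA or TTCGAA), for CCAAT, and for E2F-like letters (TTCCCGC or TTGGCGC). The 4 stretches below end at the base before the start site and have every match in capitals. They are shown because INCENP and ZWINT had fold changes among the lowest of the list, CDC20 was nearer to no difference, and HJURP was higher in both YW-LF libraries, although all 4 hold a CHR match and CCAAT boxes. They were picked with these values known.
INCENP, chr11:62123836-62124010, + strand: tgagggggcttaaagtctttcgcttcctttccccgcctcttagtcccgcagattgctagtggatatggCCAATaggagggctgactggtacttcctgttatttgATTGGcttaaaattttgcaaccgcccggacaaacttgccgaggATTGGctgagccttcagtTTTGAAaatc
ZWINT, chr10:56361260-56361434, - strand: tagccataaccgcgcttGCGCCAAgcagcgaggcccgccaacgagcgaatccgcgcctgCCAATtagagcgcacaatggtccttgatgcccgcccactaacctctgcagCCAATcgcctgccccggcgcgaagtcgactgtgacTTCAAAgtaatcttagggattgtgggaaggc
CDC20, chr1:43358806-43358980, + strand: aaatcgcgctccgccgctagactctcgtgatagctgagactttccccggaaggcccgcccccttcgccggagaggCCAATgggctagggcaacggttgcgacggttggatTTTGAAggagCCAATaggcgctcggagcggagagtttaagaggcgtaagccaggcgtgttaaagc
HJURP, chr2:233854536-233854710, - strand: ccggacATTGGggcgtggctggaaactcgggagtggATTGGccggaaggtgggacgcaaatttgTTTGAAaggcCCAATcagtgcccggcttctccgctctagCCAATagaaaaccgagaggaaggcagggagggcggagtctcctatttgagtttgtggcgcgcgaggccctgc

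A CHR match was present in 19 of the 35 windows (54.3%), against 16.4% of all 35116 promoter windows and 11.3% of the 10998 windows of genes tested here. A CCAAT match was present in 23 (65.7%), against 34.6% and 36.5%, and an E2F-like match in 10 (28.6%), against 9.23% and 14.5%. Both CHR and CCAAT were present in 14 (40.0%), against 6.38% and 4.83%. CHR letters were in 9 of the 13 genes with a window that were lower at an unadjusted p under 0.05, and in 10 of the other 22. The median log2 fold change was -0.87 with a CHR match and -0.64 without, and -0.59 with a CCAAT match and -0.83 without. CENPE (-1.75) held none of these letters in its window, and CENPW (1.16) held both CHR and CCAAT letters. The CCAAT and TTGGCGC letters share bases in ZW10 and PMF1. A match describes letters and is not a measured binding site.

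**Figure D2:**
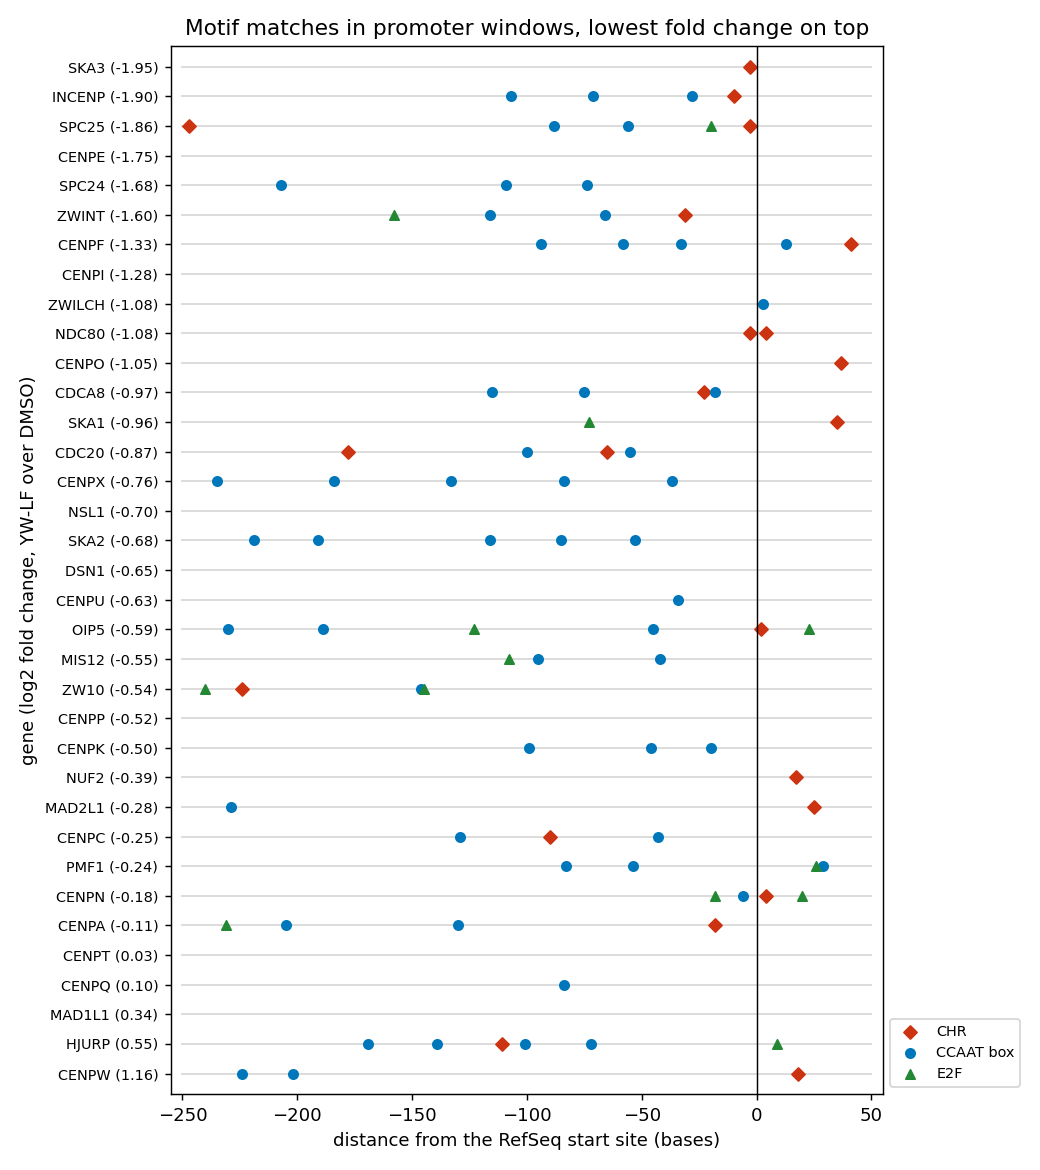
Matches to CHR, CCAAT and E2F-like letters (either strand) by distance in bases from the RefSeq start site in the 35 promoter windows, with genes ordered by log2 fold change (YW-LF over DMSO, in brackets), the lowest on top. CHR matches occur from SKA3 (-1.95) at the top to CENPW (1.16) at the bottom. KNL1 (-2.21) has no window and is not shown.

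The KMN network, the microtubule-binding core of the outer kinetochore, held the lowest value of the list. Of its 10 genes, 9 had both YW-LF libraries below both DMSO libraries and 0 above, against 27.8% below and 28.0% above over all genes tested. At an unadjusted p under 0.05, 5 were lower, against 9.01% of all genes, and the median log2 fold change was -0.89. KNL1, the scaffold that recruits the checkpoint proteins BUB1 and BUB3 (ENSG00000137812, chromosome 15, 40594020 to 40664342 in GENCODE 29 on GRCh38), stood at 22.3 and 14.8 CPM in YW-LF replicates 1 and 2, against 93.7 and 77.7 CPM in DMSO. Both treated libraries were far below both controls, at 18.5 ± 5.29 CPM in YW-LF and 85.7 ± 11.3 CPM in DMSO (SD, n = 2 each), a 4.62-fold lower level. Its log2 fold change was -2.21 (SE 0.39, unadjusted p = 0.00103 and adjusted p = 0.121 in edgeR; DESeq2 adjusted p = 2.6e-04). ZWINT, the KNL1 partner whose promoter is printed above, had 47.9 and 41.3 CPM in YW-LF, against 142 and 129 CPM in DMSO (-1.60, SE 0.35, edgeR adjusted p = 0.121).

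The subunits of the NDC80 complex, the rod that grips the microtubule, differed in how far they were lower. SPC25, which joins the complex to the inner kinetochore, had 7.80 and 9.16 CPM in YW-LF, against 30.9 and 30.7 CPM in DMSO, so that the control pair was almost equal (log2 fold change -1.86, SE 0.38, edgeR adjusted p = 0.121). Its partner SPC24 was at -1.68 (SE 0.39) and NDC80, which binds the microtubule directly, at -1.08 (SE 0.35). NDC80 had 33.7 and 32.8 CPM in YW-LF, against 78.2 and 62.0 CPM in DMSO. NUF2, which pairs with NDC80 along the rod, was nearer to no difference at -0.39 (SE 0.37); YW-LF replicate 2 (41.5 CPM) was just under DMSO replicate 2 (42.1 CPM). The 4 subunits of the MIS12 complex, the link between CCAN and KMN, were at -0.24 to -0.70. None reached an unadjusted p of 0.05, against 9.01% lower and 11.5% higher over all genes. The 4 were NSL1 (-0.70), DSN1 (-0.65), MIS12 (-0.55) and PMF1 (-0.24), the last with overlapping groups.

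Genes of the SKA complex, which tracks microtubule ends together with NDC80, had both YW-LF libraries below both DMSO libraries in 3 of 3 (27.8% over all genes). SKA3, the subunit that CDK1 phosphorylation couples to NDC80 (chromosome 13, 21153595 to 21176602), had 12.8 and 30.4 CPM in YW-LF, against 82.3 and 84.4 CPM in DMSO. The treated libraries disagreed in size but not in direction (-1.95, SE 0.49, edgeR adjusted p = 0.13). SKA1, the microtubule-binding subunit, had 18.9 and 15.9 CPM in YW-LF, against 30.7 and 37.2 CPM in DMSO (-0.96, SE 0.37, unadjusted p = 0.0373, edgeR adjusted p = 0.22; unadjusted p = 0.0658 with a replicate block). SKA2, a structural subunit, had 21.3 and 51.4 CPM in YW-LF, against 52.5 and 63.8 CPM in DMSO, so YW-LF replicate 2 came close to the controls (-0.68, SE 0.49).

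**Figure D3:**
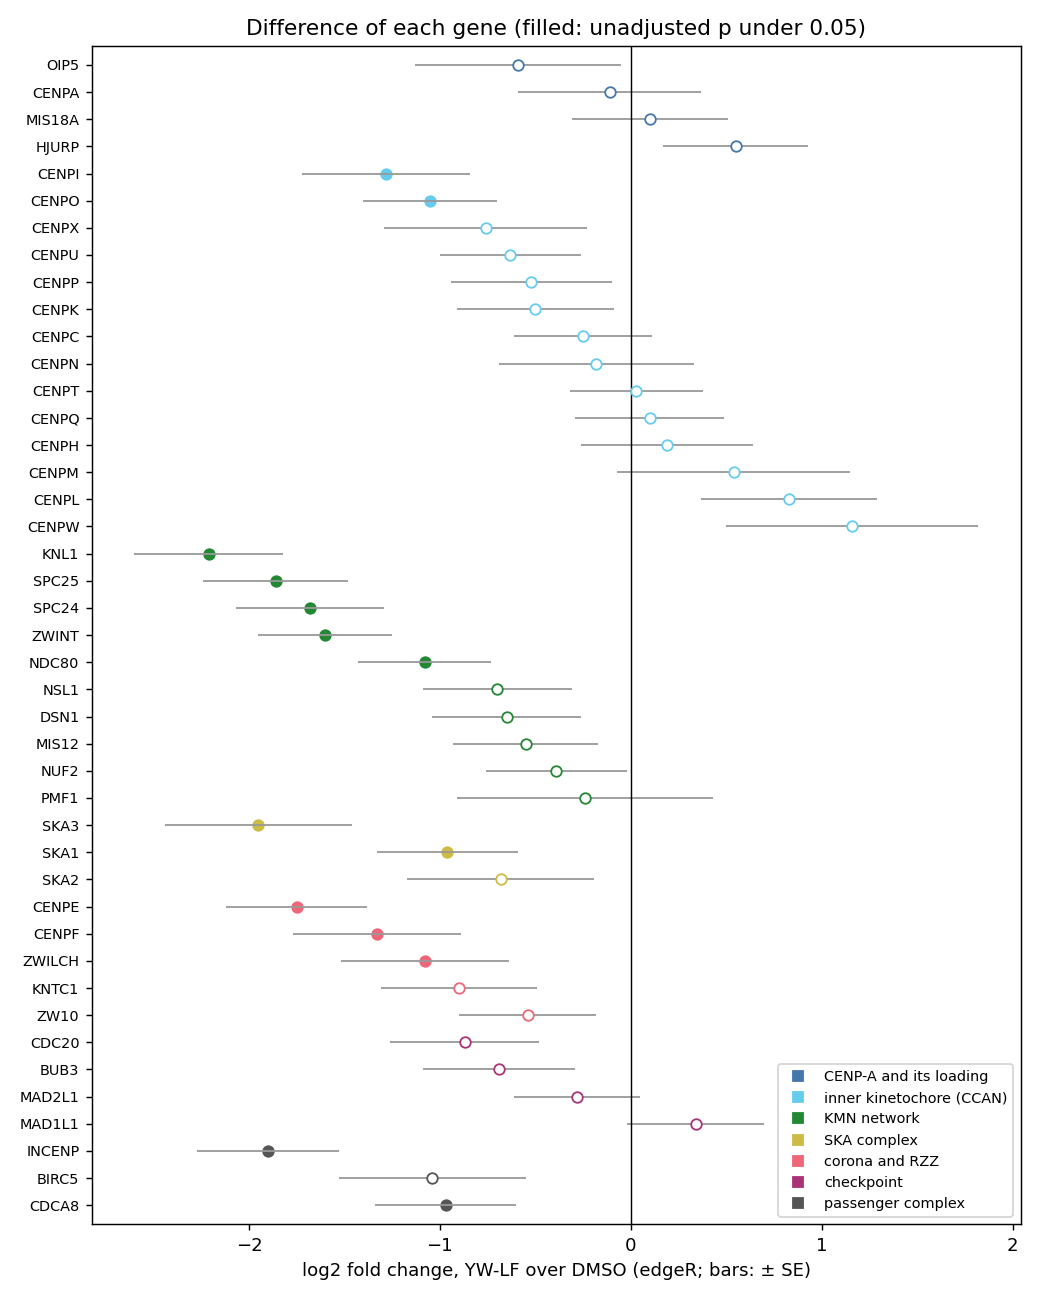
Log2 fold change of each gene (YW-LF over DMSO, edgeR) with its SE as bars, coloured by role; filled points have an unadjusted p under 0.05. Filled points run from KNL1 (-2.21) to SKA1 (-0.96), and inner kinetochore genes spread from CENPI (-1.28) to CENPW (1.16).

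The corona, which forms on kinetochores before they bind microtubules, and the RZZ complex within it had both YW-LF libraries below both DMSO libraries in 5 of 5 genes (27.8% over all genes; median -1.08), with 3 lower at an unadjusted p under 0.05 (9.01% over all genes). CENPE, the kinesin that carries chromosomes to the spindle equator (ENSG00000138778, chromosome 4, 103105806 to 103198409), had 39.9 and 42.4 CPM in YW-LF, against 158 and 119 CPM in DMSO. The YW-LF libraries agreed closely, and the level was 3.37-fold lower (-1.75, SE 0.37, edgeR adjusted p = 0.121). CENPF, a large farnesylated coiled-coil protein that builds up in G2, had 201 and 214 CPM in YW-LF, against 618 and 425 CPM in DMSO (-1.33, SE 0.44, edgeR adjusted p = 0.178). It had the highest CPM of the 43 genes in each library. ZWILCH, an RZZ subunit, had 14.7 and 9.45 CPM in YW-LF, against 30.2 and 21.1 CPM in DMSO (-1.08, SE 0.44, unadjusted p = 0.0441); that p was 0.0582 with upper quartile scaling and 0.0505 with at least 10 counts required in all 4 libraries. The other RZZ subunits were KNTC1, the ROD protein, at -0.90 (SE 0.41), and ZW10 at -0.54 (SE 0.36).

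Of the 4 checkpoint genes, 0 reached an unadjusted p of 0.05, against 9.01% lower and 11.5% higher over all genes. With 4 genes, that count cannot be told from these shares. Of the 4, 3 had both YW-LF libraries below both DMSO libraries (27.8% over all genes), and the median log2 fold change was -0.49. CDC20, the target of the checkpoint, had 63.4 and 99.4 CPM in YW-LF, against 143 and 153 CPM in DMSO (-0.87, SE 0.39, unadjusted p = 0.0646, edgeR adjusted p = 0.268). BUB3, which docks the BUB kinases on KNL1, had 150 and 201 CPM in YW-LF, against 315 and 253 CPM in DMSO (-0.69, SE 0.40). MAD2L1, the MAD2 protein that sequesters CDC20, had 54.8 and 51.6 CPM in YW-LF, against 65.3 and 64.0 CPM in DMSO. All 4 libraries were close for MAD2L1, and its log2 fold change of -0.28 was within its SE of 0.33. MAD1L1, the kinetochore receptor of MAD2, was the exception in direction, with 114 and 93.3 CPM in YW-LF, against 72.3 and 91.9 CPM in DMSO (0.34, SE 0.36); YW-LF replicate 2 was barely above DMSO replicate 2.

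The chromosomal passenger complex places Aurora B at centromeres to correct faulty attachments. All 3 of its listed subunits had both YW-LF libraries below both DMSO libraries (27.8% over all genes; median -1.04). INCENP, the scaffold that activates Aurora B (ENSG00000149503, chromosome 11, 62123973 to 62153163), had 39.4 and 48.1 CPM in YW-LF, against 149 and 178 CPM in DMSO, a 3.73-fold lower level without overlap. Its log2 fold change was -1.90 (SE 0.37, unadjusted p = 0.00162 and adjusted p = 0.121 in edgeR; DESeq2 adjusted p = 0.00143). CDCA8, the borealin subunit, had 36.7 and 52.6 CPM in YW-LF, against 79.4 and 95.9 CPM in DMSO (-0.97, SE 0.37). BIRC5, or survivin, which reads phosphorylated histone H3 at the centromere, had 22.4 and 34.7 CPM in YW-LF, against 80.3 and 36.7 CPM in DMSO. Its DMSO replicates differed over 2-fold, and its log2 fold change of -1.04 (SE 0.49) was -0.36 when DMSO replicate 1 was left out and -1.51 when DMSO replicate 2 was.

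Inner kinetochore genes were found on both sides of the controls. Of 14 CCAN genes, 6 had both YW-LF libraries below both DMSO libraries, 2 above, and 6 overlapped, against 27.8% below and 28.0% above over all genes, and their median was -0.21. CENPI, which with CENPH, CENPK and CENPM forms the CENP-HIKM subcomplex, had 6.19 and 9.74 CPM in YW-LF, against 21.2 and 17.4 CPM in DMSO (-1.28, SE 0.44, unadjusted p = 0.0251, edgeR adjusted p = 0.192). Its partners were nearer to no difference or above it: CENPK was at -0.50, CENPH at 0.19 and CENPM at 0.54. CENPM had 6.21 and 18.4 CPM in YW-LF, against 9.72 and 7.20 CPM in DMSO, so its groups overlapped (SE 0.61). Its sign turned without YW-LF replicate 2 (-0.46). For CENPH the levels were 9.07 and 8.38 CPM in YW-LF, against 7.40 and 7.86 CPM in DMSO, a narrow gap without overlap. CENPO had 27.9 and 36.1 CPM in YW-LF, against 64.6 and 67.6 CPM in DMSO (-1.05, SE 0.35, unadjusted p = 0.0225, edgeR adjusted p = 0.185). CENPO belongs with CENPP (-0.52), CENPQ (0.10) and CENPU (-0.63) to the subcomplex that binds PLK1 through CENPU.

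CENPL, whose protein pairs with CENP-N to grip the CENP-A nucleosome, had 22.9 and 49.3 CPM in YW-LF, against 20.9 and 19.7 CPM in DMSO (0.83, SE 0.46, unadjusted p = 0.119). YW-LF replicate 2 alone was well above the controls, and the log2 fold change was 0.16 without it. CENPN itself was at -0.18, and its YW-LF levels of 27.6 and 73.5 CPM stood on either side of 56.3 and 57.8 CPM in DMSO. Likewise, CENPW, a histone-fold partner of CENP-T, had 9.55 and 38.2 CPM in YW-LF, against 11.3 and 9.95 CPM in DMSO (1.16, SE 0.66). Leaving out YW-LF replicate 2 turned its sign (-0.17). CENPT, the CCAN arm that binds NDC80 directly, was at 0.03 (SE 0.35), and its sign turned with upper quartile scaling (-0.0026). CENPC, the main reader of the CENP-A nucleosome, was at -0.25 (SE 0.36), and CENPX, another histone-fold protein, at -0.76 (SE 0.53) with overlapping groups.

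CENP-A and its loading factors also went both ways (median -0.0045). In the treated pair, 1 gene lay under the control range, 1 lay over it and 2 overlapped it. Over all genes, 27.8% lay under and 28.0% over. At an unadjusted p under 0.05, 0 of the 4 were called, against 9.01% lower and 11.5% higher over all genes. With 4 genes, a count of 0 cannot be told from these shares. CENPA had 8.91 and 18 CPM in YW-LF, against 16 and 13 CPM in DMSO, so its treated libraries stood on either side of the controls (-0.11, SE 0.48). HJURP, the chaperone that deposits CENP-A, had 44.4 and 68.0 CPM in YW-LF, against 42.6 and 34.3 CPM in DMSO (0.55, SE 0.38, unadjusted p = 0.2). Both treated libraries exceeded both controls, replicate 1 by little. For the MIS18 complex, which licenses the site for deposition in G1, MIS18A had 11.7 and 16.1 CPM in YW-LF, against 12.9 and 13 CPM in DMSO (0.10, SE 0.41). OIP5, its partner MIS18 beta, had 7.36 and 3.92 CPM in YW-LF, against 9.35 and 7.65 CPM in DMSO (-0.59, SE 0.54).

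Subunits of the same complex differed from each other to unequal extents. The range of log2 fold changes was 1.92 among CENPT, CENPW and CENPX, 1.82 in CENP-HIKM and 1.47 in the NDC80 complex, but 0.46 in the MIS12 complex and 0.54 in RZZ. These ranges have no test, and single values carry SEs of 0.33 to 0.67. They also changed with single libraries. Without YW-LF replicate 2, CENPT, CENPW and CENPX were close together, at -0.09, -0.17 and -0.50. PMF1 of the MIS12 complex was then at -1.49 and the other subunits at -0.43 to -0.75. Without YW-LF replicate 1, PMF1 was at 0.42 and the other subunits at -0.39 to -1.01. CENPT, CENPW and CENPX were then at 0.13, 1.84 and -1.11.

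Treated libraries were also set against different controls, so that no control was shared. The log2 ratios of YW-LF replicate 1 over DMSO replicate 1 and of YW-LF replicate 2 over DMSO replicate 2 had Pearson's r = 0.64 across the 43 genes, and r = 0.53 with the controls exchanged; genes are not independent replicates and share each library's scaling. Both ratios were negative in 30 genes and positive in 5 (in 30 and 4 with the controls exchanged). Neither the r values nor these counts were computed over all genes tested, so they have no background and describe these 43 genes only. KNL1 was at -2.07 and -2.39, INCENP at -1.92 and -1.88, and SKA3 at -2.68 and -1.47.

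**Figure D4:**
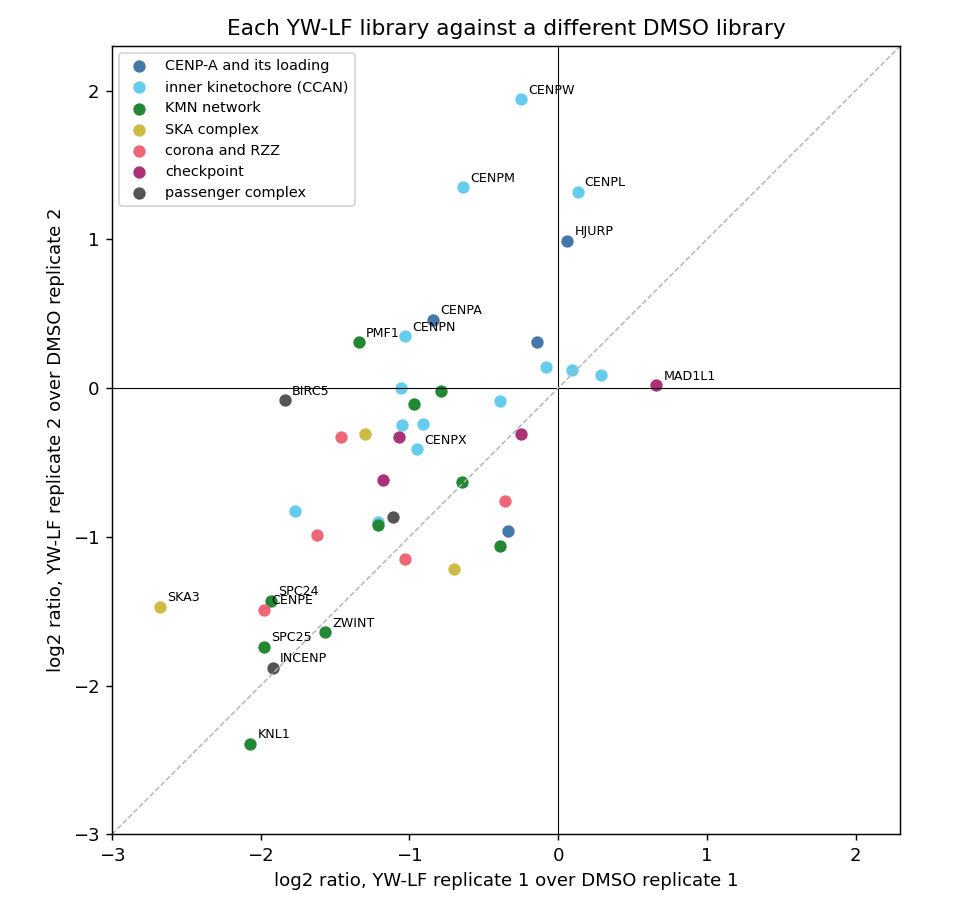
Log2 ratio of YW-LF replicate 2 over DMSO replicate 2 (vertical) against that of YW-LF replicate 1 over DMSO replicate 1 (horizontal), 1 point per gene, coloured by role; the dashed line marks equal ratios. KNL1, INCENP, SPC25 and ZWINT lie near the line at the lower left, whereas CENPW and CENPM are high in YW-LF replicate 2 only.

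Levels were also compared between genes per kb of GENCODE 29 exon length, which counts the exons of all isoforms. By mean CPM per kb, CDC20 was the highest of the 43 in both groups, at 39.9 in YW-LF and 72.8 in DMSO. ZWINT was 4th in YW-LF (18.7) and 2nd in DMSO (56.9), and INCENP was 17th in YW-LF (9.78) and 4th in DMSO (36.5). KNL1 was the lowest in YW-LF, at 1.81, and 29th in DMSO, at 8.36; the lowest in DMSO was CENPH, at 3.89 in YW-LF and 3.40 in DMSO. The authors' annotation was not used here, so these orders are approximate.

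Of 20 other kinetochore and checkpoint genes, 9 were lower and 1 higher at an unadjusted p under 0.05 (9.01% and 11.5% over all genes), with 14 below both DMSO libraries (27.8% over all genes) and a median log2 fold change of -0.86; 0 passed adjustment over all genes in edgeR. BUB1B, the BUBR1 subunit of the checkpoint inhibitor, had 27.7 and 21.8 CPM in YW-LF, against 107 and 90.2 CPM in DMSO (-2.0, SE 0.37, edgeR adjusted p = 0.121, DESeq2 adjusted p = 8.1e-04). PLK1, the polo-like kinase that acts at kinetochores, was at -1.68 (SE 0.38). MAD2L1BP, or p31comet, which takes MAD2 out of the checkpoint inhibitor, was higher, with 44.2 and 95.3 CPM in YW-LF, against 21 and 20.6 CPM in DMSO (1.75, SE 0.46, edgeR adjusted p = 0.137, DESeq2 adjusted p = 0.0148).

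Exons of 13 of the 43 genes overlap another gene of the table, 11 on the opposite strand and 2 on the same strand, and the sources used here do not say whether counting used strand, so their counts are uncertain. Among those lower at an unadjusted p under 0.05 these are SPC24, CENPO and ZWILCH. CENPO overlaps ADCY3 (-0.76, SE 0.39) and PTRHD1 (-0.08, SE 0.69), and ZWILCH overlaps RPL4 (0.64, SE 0.55). PMF1 shares exons with the read-through gene PMF1-BGLAP, which was at -1.36 (SE 0.59). KNL1, INCENP, SPC25, SKA3, CENPE, ZWINT and CENPF overlap none.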

How the data were processed

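The deposited values are raw counts of reads by gene (whole numbers with unequal library totals). No aligner, counter or annotation is named in the sources used here. GRCm38 and mm10, both mouse, are the builds in the submitters' processing notes, yet all 20263 row identifiers are human Ensembl genes, and counts were used by identifier. Symbols matched 20148 rows. Columns were tied to samples by title. A second deposited table repeats the DMSO counts (40526 of 40526 values identical); 2 columns of per-sample values match no label and were not used. Replicates were not copies of each other (chi-square over its degrees of freedom 596 in YW-LF and 257 in DMSO).

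Counts were tested with edgeR 4.0.16 in R 4.3.3 (filterByExpr, 13816 genes; TMM scaling; quasi-likelihood F-test, YW-LF over DMSO, no covariates; Benjamini-Hochberg over all genes; threshold 0.05). All 43 genes passed the count filter. SE is the log2 fold change divided by the root of F. Log2 CPM used a prior count of 2. Alternatives were DESeq2 1.42.0, limma-voom (limma 3.58.1), other scalings and filters, a replicate block and leaving out each library. The fit was checked on simulated counts. That check had to pass only at a small spread set for it, so it does not speak for the spread of these libraries. The genes, lists and tests were chosen with earlier results of these data known. Library values were given for CENPA, NDC80, KNL1, MAD2L1, BUB3, CDC20, BIRC5 and INCENP, the 3 genes of lowest p in each role, and genes above both controls; of the 20 other genes, the 4 of lowest p were to be named, of which 1 is not reported here. Promoters shown and other named genes were chosen after values were seen. Coordinates are from GENCODE 29 (GRCh38), and promoters from RefSeq (GRCh38.p14).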

Additional observations from a re-analysis of the deposited data

How the results depend on the processing

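The count of kinetochore genes lower at an unadjusted p under 0.05 (14) was 8 with library size only (5.46% of all genes, against 9.01%). That setting moved the median of all genes to 0.16. In it, 2 genes, not 4, had both YW-LF libraries above DMSO, against 3964 of 13816 over all genes. With upper quartile scaling there were also 2, against 3775 of 13816. With library size only, 5 rather than 9 of the other pathway genes were lower, beside the same 5.46% of all genes. The count past an adjusted p of 0.05 in edgeR (0) was 1 without the count filter, 3 with the replicate number as a block (KNL1, SKA3 and INCENP; background 1.05% lower over all genes) and 8 with DESeq2. Same-numbered libraries did not deviate together (r = 0.04 across genes) and the labels tie the numbers to no batch. Leaving out 1 library, the lower count ranged from 6 (DMSO replicate 1 left out) to 26 (YW-LF replicate 2 left out). The higher count ranged from 0 to 4, the adjusted count from 0 to 21, the median from -0.9 to -0.47, genes above DMSO from 4 to 11, and other pathway genes lower from 2 to 14. The 11 genes above DMSO were found without YW-LF replicate 1, against 6128 of 14091 over all genes. The 4 were found without DMSO replicate 2, against 4897 of 14439. In each of these fits, the share of the 43 genes above DMSO was under that of all genes. The lower counts, of the 43 and of the other pathway genes, have as background the all-gene shares given for these fits under Results, which also moved. In such fits the remaining pair sets the spread, and the lone sample is assumed to vary like it. The cause of the changes was not tested. Log2 fold changes whose sign turned ranged over the 4 such fits from -0.71 to 0.3 for CENPA, -1.06 to 0.36 for CENPN, -1.49 to 0.42 for PMF1, -0.16 to 0.31 for MIS18A, -0.46 to 1.12 for CENPM, -0.09 to 0.13 for CENPT, -0.17 to 1.84 for CENPW and -0.13 to 0.36 for CENPQ. CENPT also turned with upper quartile scaling (-0.0026). All other signs held in all settings run.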
